A study of Mus musculus with 4 samples.

Results

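The long non-coding RNAs (lncRNAs) detected in mouse epidermis were taken from the gene table as the rows typed lncRNA that lie on an autosome and reach 30 counts summed over the 4 libraries. The rule gave 52 lncRNAs of the 56493 rows of the table. The table has 11608 lncRNA rows, of which 10820 are autosomal. Of these autosomal rows 1442 had a count in any library, so the 52 are the abundant end of a long tail. The members were thus selected on their summed counts, and nothing is concluded from their reaching the threshold. Just inside it lay Ppp4r1l-ps with 7, 4, 13 and 6 counts and Sp3os with 8, 2, 17 and 3 counts, both with a sum of 30. Just outside it lay Gm11632 and Gm13166, both with a sum of 28. For comparison, 4377 of 21620 protein-coding rows reached 30 counts.

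An lncRNA is a long transcript that is not known to be translated into protein. Some lncRNAs stay in the nucleus and organise nuclear bodies, some silence neighbouring genes, and some act in the cytoplasm by binding proteins or microRNAs. Others are known mainly as host transcripts, whose introns or exons release small nucleolar RNAs (snoRNAs, guides for the chemical modification of ribosomal RNA) or microRNAs (miRNAs, short repressors of messenger RNAs). In the epidermis the keratinocytes, which divide in the basal layer and mature towards the surface, make up most of the cells.

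The libraries came from dorsal skin of Mus musculus whose epidermal layer had been separated from the dermis with 3.8% sodium thiocyanate for 20 min. The cKO group, 2 libraries, came from mice in which Stim1 and Stim2, both sensors of calcium in the endoplasmic reticulum, were deleted with a K14-Cre transgene, whose keratin 14 promoter is active in basal keratinocytes and other stratified epithelia. The control group, 2 libraries, came from Stim1/2 fl/fl mice, labelled Flox/Flox; age, sex and whether the controls carried Cre are not given. The labels do not say that the replicates were separate mice, so p-values measure only the spread between these libraries. A kit that reads polyadenylated RNA from its 3' end was used for all 4 libraries.

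The libraries were shallow, with totals of 282190 and 118858 counts in cKO replicates 1 and 2 and of 200293 and 322426 counts in control replicates 1 and 2. Normalised levels (CPM) are counts brought to a common library size after TMM scaling, and 1 count was worth 4.04, 11.2, 5.34 and 3.19 CPM in the same order. In cKO replicate 2, 3 of the 52 lncRNAs had 0 counts, which allows up to 33.7 CPM (3 counts), and 14 had 3 or fewer. This limit and the intervals below cover counting error only. Stim1 was at 23 and 6 counts in the cKO libraries and at 24 and 62 in the controls, and Stim2 had 0 and 1 against 3 and 18. Each of the 8 keratinocyte markers had counts, with a summed level of 13710 and 7766 CPM of the library total in cKO and 10190 and 14110 in control. This sum hides shifts in either direction. Scaled by library totals, both cKO values lay above both control values for Krt14 and Krt1, and below for Krt15 and Dsp. The other keratinocyte markers overlapped. Krt14 had 1077, 267, 174 and 271 counts, cKO libraries first, and Krt15 had 208, 138, 535 and 657. The 7 skeletal muscle markers were uneven between the groups, with a summed 4 and 6 counts in cKO (14.2 and 50.5 CPM of the library total) against 241 and 280 in control (1203 and 868). Of these, Myh4, Tnnt3, Myl1 and Pvalb were at 0 in both cKO libraries. The 6 fibroblast markers summed to 31.9 and 454 CPM in cKO and 150 and 99.3 in control. The 5 Langerhans cell markers summed to 1162 and 2423 in cKO and 3195 and 1957 in control. Among them, on the same scale, Cd207 and Cd74 were lower in both cKO libraries than in both controls. Epcam was higher, and the other Langerhans cell markers overlapped. The 4 melanocyte markers summed to 121 and 320 in cKO and 305 and 80.6 in control, and the 4 adipocyte markers to 10.6 and 135 against 54.9 and 6.20. The 4 endothelial markers had at most 1 count in any library. In bulk tissue, fewer cells of a type and less RNA per cell cannot be told apart.

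The sequences shown next lie within members described below. Those of the miRNAs are background, and no result below rests on them. The first set shows the mature miRNAs encoded within 3 of the lncRNAs, in RNA letters with the seed (bases 2 to 8, which pair with target messages) in capitals, from RefSeq on GRCm38.p6. Mir205hg encloses the first, Lncppara the next pair, and Mir99ahg the last pair together with a second copy of let-7c-5p. The let-7 miRNAs share 1 seed.
miR-205-5p: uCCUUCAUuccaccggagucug
let-7c-5p: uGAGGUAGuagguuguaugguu
let-7b-5p: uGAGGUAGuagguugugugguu
miR-99a-5p: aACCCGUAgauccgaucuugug
miR-125b-5p: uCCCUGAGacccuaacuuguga

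The second set shows why some lncRNA rows cannot be read as separate transcripts. Each stretch of 60 bases stands in the GENCODE M21 transcript of an lncRNA and, letter for letter, in the coding sequence of a protein-coding gene. The Gm28037 stretch (bases 92 to 151 of its 611) equals bases 1 to 60 of the 471 coding bases of Rpl24, within an identical run of 394 bases. The Tmem147os stretch (bases 178 to 237 of its 456) equals bases 1909 to 1968 of the 2046 coding bases of Sbsn, within an identical run of 138 bases. All letters are in lower case because no base differs.
Gm28037 and Rpl24: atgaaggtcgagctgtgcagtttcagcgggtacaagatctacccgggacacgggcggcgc
Tmem147os and Sbsn: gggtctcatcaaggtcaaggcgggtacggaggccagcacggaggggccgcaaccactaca

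The lncRNAs as a set took a smaller share of the counts in both cKO libraries than in both control libraries. The cKO libraries had shares of 1.527% (replicate 1, 1.48% to 1.57% as the 95% Wilson interval) and 1.39% (replicate 2, 1.32% to 1.46%). The control libraries had 1.855% (replicate 1, 1.80% to 1.92%) and 2.149% (replicate 2, 2.10% to 2.20%). No cKO interval touched a control interval. The mean was 1.458% ± 0.097 (SD, n = 2) in cKO and 2.002% ± 0.208 (SD, n = 2) in control, which puts cKO at 72.84% of control. The exact two-sided permutation test over the libraries gave p = 0.33, the smallest that 2 against 2 allows, so the design cannot show this difference at 0.05. The skeletal muscle markers given above moved with the groups in the same direction, and so did the sum of the 6 T cell markers. That sum was 209 and 135 CPM of the library total in cKO and 310 and 239 in control. Not every T cell marker followed it. Thy1 (42, 1, 10 and 9 counts, cKO libraries first) and Cd3d (6, 3, 5 and 13) overlapped between the groups. The part of either marker set in this share was not tested.

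Most of this difference lay in 1 transcript, Malat1. Its share of all counts was 0.912% and 0.876% in cKO and 1.237% and 1.424% in control, which puts the cKO mean at 67.2% of control. Without Malat1 the other lncRNAs took 0.615% and 0.514% in cKO and 0.618% and 0.726% in control, 84% of control. These shares are of the library totals, on which the median tested gene was itself at 84.8% of control. On the TMM scale the other 51 lncRNAs summed to 7015 and 6867 CPM in cKO and 6606 and 7473 in control, a cKO mean of 98.6% of control, with overlapping groups. Malat1 was at 79.3% of control on that scale, and all 52 together at 85.8%, with 17423 and 18566 CPM in cKO below 19829 and 22130 in control. Malat1 alone made up 59.74% and 63.01% of the lncRNA counts in cKO and 66.68% and 66.23% in control.

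**Figure D1:**
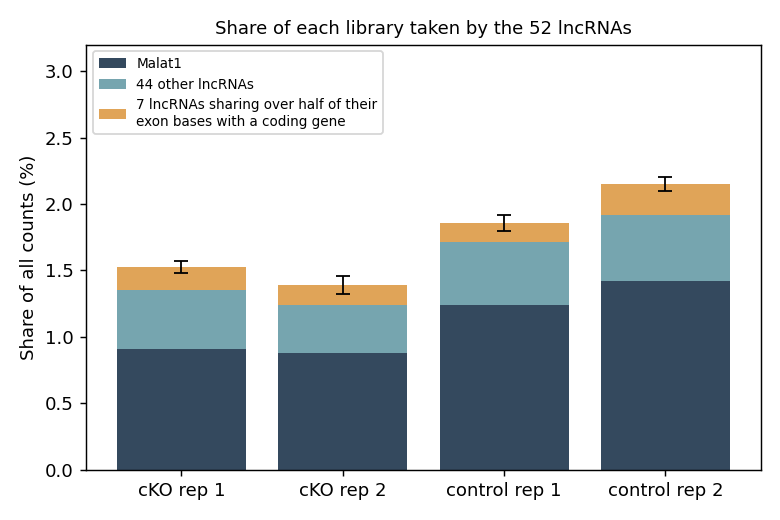
Share of all counts in each library (y axis, percent) taken by the 52 lncRNAs, split into Malat1, the 7 lncRNAs that share over 50% of their exon bases with a coding gene, and the other 44. Bars on the totals are 95% Wilson intervals. The totals of 1.527% and 1.39% in cKO lie below those of 1.855% and 2.149% in control, and Malat1 is the largest block of each bar.

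No lncRNA passed the test of single genes. In edgeR's quasi-likelihood test over 4243 genes, 43 of the 52 lncRNAs passed the filter on low counts and 0 were called at an adjusted p under 0.05, where 36 of all tested genes (0.848%) were called, 28 of them higher (0.660%) and 8 lower (0.189%). With the 9 lncRNAs under the filter added to the fit, 0 of 52 were called (0.847% of all genes) and 1 had an unadjusted p under 0.05 (8.40% of all genes). DESeq2 and limma-voom also called 0 lncRNAs. At an unadjusted p under 0.05 there was 1 lncRNA, Gm56936, beside 8.39% of all tested genes. The lowest adjusted p of a tested lncRNA was 0.494. The fitted log2 fold change, cKO over control, was below 0 in 26 of the 43 and above 0 in 17; the share below 0 was 60.5%, against 49.6% of all tested genes. Their median was -0.08, against 0.007 over all tested genes, and the median size of the change without its sign was 0.23, against 0.44. Of the 43, 6 had a change larger than 1 on the log2 scale (13.95%), against 17.35% of all tested genes. These lncRNAs were tested because they were abundant enough, so the counts describe them and not lncRNAs at large. Of the 52 members, 13 reached 30 counts in control only and 0 in cKO only. By group mean CPM, 11 of these 13 were lower in cKO. The threshold thus bears on the direction counts here and below, and nothing is concluded from them. The median standard error of a log2 fold change was 0.65 among them, so that small changes in a single lncRNA were not detectable at this depth. Even the lowest fitted value, -2.20 in Gm56936, had an edgeR adjusted p of 0.494. The 0 calls therefore do not exclude large changes in a single lncRNA either.

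**Figure D2:**
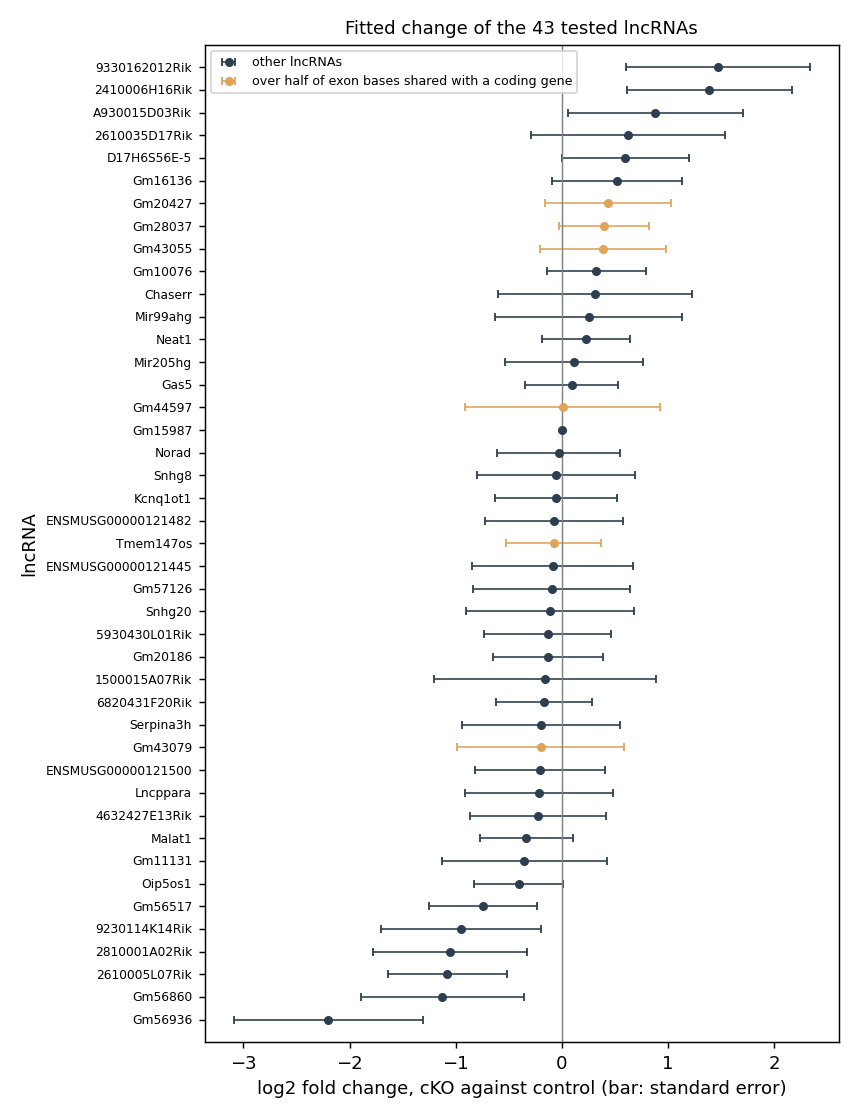
Fitted log2 fold change, cKO against control (x axis), of each of the 43 tested lncRNAs, with bars for the standard error (edgeR, 2 libraries per group) and orange for those that share over 50% of their exon bases with a coding gene. Gm15987, at 0.00, has no bar, because the standard error is derived from the size of the change. Most bars cross 0, Gm56936 lies lowest at -2.20 and 9330162012Rik highest at 1.47.

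Whether the groups overlapped was read from the CPM of the single libraries. Among the 43 tested lncRNAs both cKO values lay above both control values in 5 and below in 7. The same held in 18.9% and 19.6% of all 4243 tested genes, so a separation of this kind was common in the table. Over all 52, cKO lay above in 5, below in 8, and the groups overlapped in 39. Scaled by library totals alone, cKO lay above in 3, below in 12 and the groups overlapped in 37. On that scale the median tested gene was itself at 84.8% of control, and the share of all genes that separated is not given here. Of the 52, 17 reached 30 counts in each group, 13 in control only, 0 in cKO only, and 22 only through both groups. The control totals were 1.30 times the cKO totals, and the part of depth in this split was not tested.

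By mean CPM over the libraries, 3 lncRNAs stood above 1000, 13 above 100, and 19 below 50, down to 31.46. The first 3, Malat1, Neat1 and Tmem147os, took 75.8% and 79.6% of the lncRNA counts in cKO and 77.5% and 81.7% in control. Malat1, at a mean of 12497 CPM, had 8.57 times the level of Neat1, the next. Per kb of listed exon length the order changed, with Tmem147os first at 3072 CPM per kb, Malat1 second at 1788 and Neat1 twelfth in order at 68.9. Of the 15 highest by CPM, 7 stayed among the 15 highest per kb. Of the 52, 20 carry a Gm symbol, 12 a symbol ending in Rik and 3 only a gene ID, so few have a described function. They lie on 18 chromosomes, 17 have a single exon block, and their exon length runs from 155 to 93651 bases with a median of 3082. Reads from the 3' end do not grow in number with transcript length, and neither scale is a count of molecules.

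**Figure D3:**
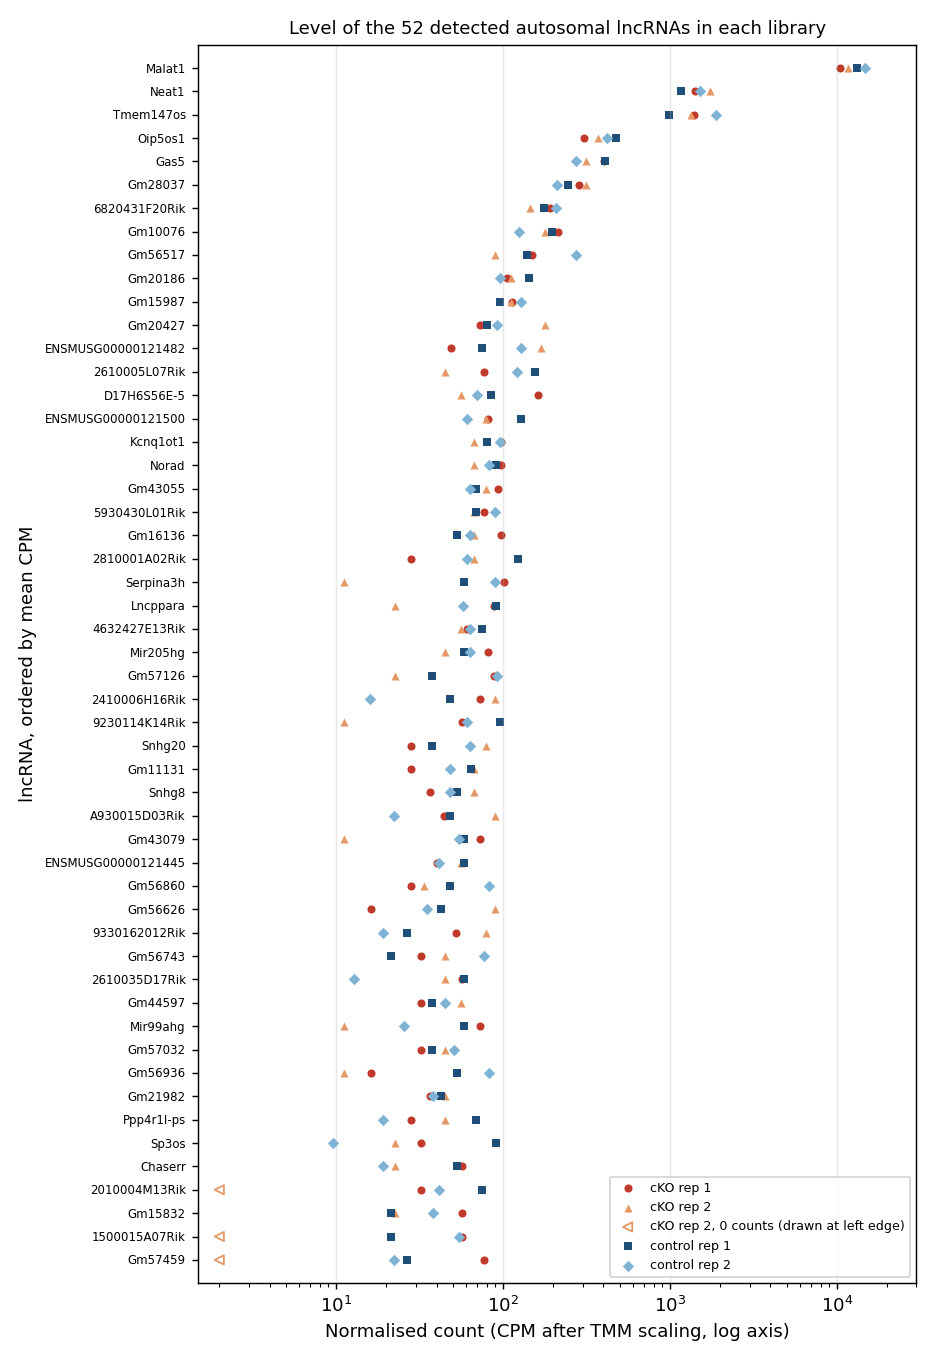
CPM after TMM scaling (x axis, log scale) of each of the 52 lncRNAs in each library, ordered by mean CPM; circles and triangles are cKO, squares and diamonds control, and open triangles at the left edge mark 0 counts in cKO replicate 2. Malat1 lies apart on the right, from 10408 to 14658 CPM, and the spread between libraries widens towards the bottom.

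Of 12 listed nuclear or widely expressed lncRNAs, all in the table, 9 had a count and 6 were members. The most abundant, Malat1 and Neat1, had fitted changes on either side of 0, and neither passed the test. Malat1 (ENSMUSG00000092341, GRCm39 chromosome 19, 5845717 to 5852706, minus strand, 1 exon block) is retained in nuclear speckles, bodies rich in splicing factors. It had 10408 and 11699 CPM in cKO and 13223 and 14658 in control. The cKO values lay below the control values, with a mean of 11054 ± 913 (SD, n = 2) against 13940 ± 1015 (SD, n = 2). Its fitted log2 fold change was -0.34 with a standard error of 0.44 (edgeR adjusted p 0.955).

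Neat1 (ENSMUSG00000092274, chromosome 19, 5874736 to 5895898, minus strand), the scaffold of paraspeckles, lies next to Malat1 on the same strand. Neat1 had 1407 and 1742 CPM in cKO and 1163 and 1520 in control, so the groups overlapped. Its log2 fold change was 0.23 with a standard error of 0.42 (edgeR adjusted p 0.980), and it became -0.05 with library totals as the only scaling. The difference between the changes of Malat1 and Neat1 was not tested.

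Kcnq1ot1 (ENSMUSG00000101609, chromosome 7, 142731562 to 142850286), which silences imprinted neighbours on the paternal chromosome, had 97.04 and 67.4 CPM in cKO and 80.04 and 95.8 in control. It has the longest exon sequence of the set, with 93651 bases, and was the only one of 9 imprinted lncRNAs in the table (of 11 listed) to reach the threshold. Of the other 8, only H19 had a count, with 1 and 3 counts in the control libraries. Chaserr (ENSMUSG00000101970, chromosome 7), known to restrain its neighbour Chd2, had 14 and 2 counts in cKO replicates 1 and 2 and 10 and 6 counts in the controls, and 25.31% of its exon bases are also exon bases of Chd2 on the same strand. Its log2 fold change of 0.31 was smaller than its standard error of 0.91.

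The cytoplasmic lncRNAs with known partners were Oip5os1 and Norad. Oip5os1 (ENSMUSG00000085438, chromosome 2, 119424757 to 119437983, plus strand), also called Cyrano and known for directing the decay of miR-7, had 307 and 371 CPM in cKO and 475 and 418 in control. Both cKO values lay below both control values, at 339 ± 45.0 (SD, n = 2) against 447 ± 40.0 (SD, n = 2). The log2 fold change was -0.41 with a standard error of 0.42 (edgeR adjusted p 0.913). Norad (ENSMUSG00000102869, chromosome 2), which binds Pumilio proteins, had 97.04 and 67.4 CPM in cKO and 90.7 and 83.03 in control, and its log2 fold change was -0.03 with a standard error of 0.58.

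The snoRNA hosts showed no common direction. Of 21 listed hosts, all in the table, 18 had a count and 3 were members. Gas5 (ENSMUSG00000053332, chromosome 1, 160861992 to 160866116, plus strand), which encloses 10 snoRNA rows, had 404 and 315 CPM in cKO and 411 and 275 in control. In each group 1 library was high and 1 low, and the log2 fold change was 0.09 with a standard error of 0.44. Snhg8, which encloses Snora24, had 36.4 and 67.4 CPM in cKO and 53.4 and 47.9 in control. Snhg20, which encloses the small Cajal body RNA row Gm55431 and Mir6516, had 28.3 and 78.7 in cKO and 37.4 and 63.9 in control. The log2 fold changes of Snhg8 and Snhg20 were -0.06 and -0.11, far inside their standard errors of 0.75 and 0.79.

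A member outside that list, 2410006H16Rik (ENSMUSG00000086841, chromosome 11, 62493650 to 62495725, plus strand), encloses Snord49b, Snord49a and Snord65. It had 72.8 and 89.9 CPM in cKO and 48.03 and 15.97 in control, from 18 and 8 counts against 9 and 5. Both cKO values lay above both control values. The log2 fold change was 1.39 with a standard error of 0.78 (edgeR adjusted p 0.716).

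The miRNA hosts were low. Of 15 listed, 14 were in the table, 8 had a count and 2 were members. Mir205hg (ENSMUSG00000097850, chromosome 1, 193189546 to 193192482, minus strand) encloses in an exon the gene of miR-205, a miRNA abundant in stratified epithelia whose sequence is given above. It had 80.9 and 44.95 CPM in cKO and 58.7 and 63.9 in control, with the control values between the cKO values. Its log2 fold change was 0.11 with a standard error of 0.65. The Mir205 row itself had 5, 1, 2 and 2 counts, and a count on it cannot be told from one on its host.

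Mir99ahg (ENSMUSG00000090386, chromosome 16, 77033184 to 77570315, plus strand) carries Mir99a, Mirlet7c-1 and Mir125b-2 in introns. It had 72.8 and 11.2 CPM in cKO and 58.7 and 25.5 in control, where the 11.2 is 1 count, and its log2 fold change was 0.25 with a standard error of 0.88. Lncppara (ENSMUSG00000116305, chromosome 15), which was not on the list and is given here because it carries Mirlet7c-2 and Mirlet7b in exons, had 88.96 and 22.5 CPM in cKO and 90.7 and 57.5 in control. Its log2 fold change was -0.22 with a standard error of 0.70. The fitted values of these let-7 hosts lay on either side of 0 and within their errors.

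Of 8 lncRNAs studied in keratinocytes that had been listed, 7 were in the table, all 7 had a count, and Malat1, Neat1 and Mir205hg were members. Dancr, which maintains undifferentiated keratinocytes, had 7, 0, 2 and 1 counts. Tincr, which promotes their differentiation, is typed protein_coding in the table and had 9, 3, 2 and 12 counts. Both were too low to size a change. Of 11 lncRNAs of the Hox clusters 6 had a count and 0 were members. Of 3 rows of ribosomal RNA repeats that were listed, 1 was in the table, as a pseudogene with 10, 1, 0 and 0 counts.

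A large part of the remaining lncRNA signal fell on rows whose exons are also exons of protein-coding genes. This was noticed only with the values in view. Of the 52, 7 shared over 50% of their exon bases with coding exons on the same strand. They held 11.39% and 10.9% of the lncRNA counts in cKO and 7.64% and 10.84% in control; with Malat1 left out, 28.3%, 29.5%, 22.9% and 32.1%. Most of the counts of these 7 rows were those of Tmem147os alone. It had 344 of 491 and 119 of 180 counts in cKO replicates 1 and 2, and 184 of 284 and 593 of 751 in the controls. For the 7 rows the counts cannot be assigned to the lncRNA rather than the coding gene.

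Gm28037 (ENSMUSG00000098371, chromosome 16, 55786706 to 55801084, plus strand) has 79.21% of its exon bases in common with Rpl24, a protein of the large ribosomal subunit, and the other 20.79% with Zbtb11. It had 71, 28, 46 and 66 counts, and Rpl24 had 71, 28, 47 and 66. The counts were equal in 3 libraries and differed by 1 in the other. Its CPM were 287 and 315 in cKO and 245 and 211 in control, with cKO above. The fitted log2 fold change was 0.40 ± 0.43 (SE), against 0.38 for Rpl24.

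Tmem147os (ENSMUSG00000109224, chromosome 7, 30434164 to 30455551, plus strand), the third lncRNA by CPM and the first per kb, has 61.18% of its 456 exon bases in common with Sbsn, a protein secreted in the upper epidermal layers. It had 344 and 119 counts in cKO replicates 1 and 2 and 184 and 593 counts in the controls. Sbsn had 795, 291, 317 and 1246 counts, so the lncRNA followed it across libraries at a ratio of 0.433, 0.409, 0.580 and 0.476. The lowest CPM of each lay in control replicate 1 (982 and 1692) and the highest in control replicate 2 (1894 and 3979). The log2 fold changes were -0.08 ± 0.45 (SE) for Tmem147os and 0.19 ± 0.48 (SE) for Sbsn. Its remaining exon bases lie in a further row named Tmem147os, which had 0, 0, 1 and 1 counts.

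Of the other 5, the counts of Gm21982, Gm20427 and Gm44597 came close to those of a coding gene or pair. Gm21982 had 9, 4, 8 and 12 counts, the same as Rbm42 in all 4 libraries, and its other partner Haus5 had 0 throughout. Gm20427 had 18, 16, 15 and 29 counts, and the sum of Hsd17b8 and Slc39a7, whose exons it joins, was 18, 16, 15 and 30. Gm44597 had 8, 5, 7 and 14 counts beside 8, 6, 7 and 14 of Ing4. It also shares 26.83% of its bases with Acrbp, which had 1, 1, 7 and 12 counts, and the sum of both, 9, 7, 14 and 26, lay above its own counts. Gm43079, whose exon bases all lie in Acad9, had 18, 1, 11 and 17 counts beside 23, 2, 12 and 26. Gm43055, with 71.79% of its bases in Ythdc1, had 23, 7, 13 and 20 counts beside 44, 15, 37 and 64. Gm43055 had 93.0 and 78.7 CPM in cKO above 69.4 and 63.9 in control. Ythdc1 had 178 and 169 in cKO below 197 and 204 in control. Scaled by library totals alone, the groups of Gm43055 overlapped. The fitted log2 changes of Gm43055 and Ythdc1 were 0.39 ± 0.60 (SE) and -0.21 ± 0.44 (SE). Both were smaller than their standard errors, and their difference was not tested. Below 50%, Gm15832 shared 38.59% with Rnf149 and had 14, 2, 4 and 12 counts beside 15, 1, 4 and 14.

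**Figure D4:**
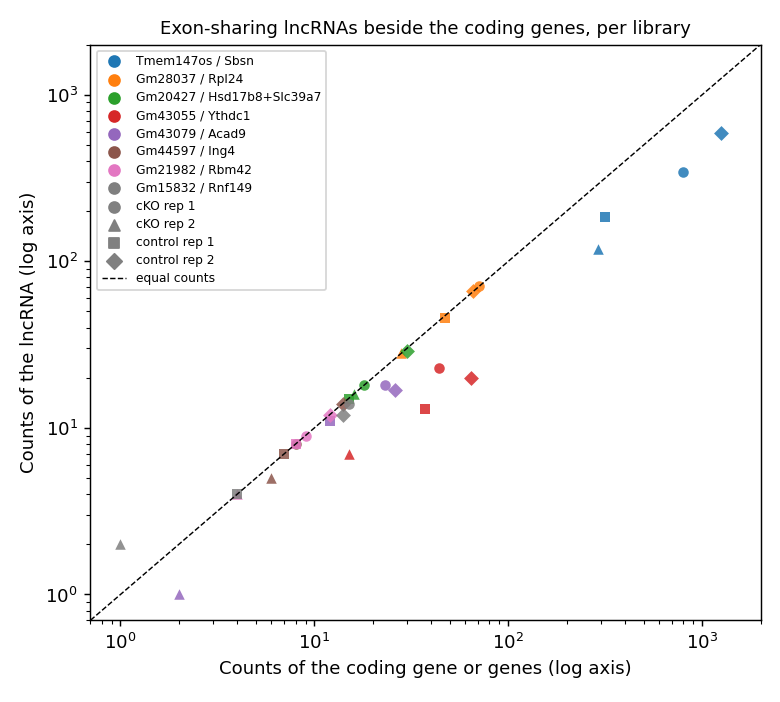
Counts of 8 lncRNAs that share exon bases with coding genes (y axis) against counts of the coding gene or genes (x axis), both on log axes, 1 point per library; the dashed line marks equal counts. Gm28037, Gm20427, Gm21982, Gm44597 (drawn against Ing4 only) and Gm15832 lie on or next to the line. The point of Gm15832 in cKO replicate 2, with 2 counts beside 1, is an exception and lies above the line. Gm43079 lies somewhat below the line, and Tmem147os and Gm43055 lie below it at a ratio between 0.3125 and 0.5804.

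The table as a whole holds 907 rows in which every exon base is shared with same-strand exons of other genes. Of these 197 had a count, 6472 counts in all or 0.7006% of the table, so reads in shared bases were counted. Whether 1 read was entered on more than 1 row is not given in the sources used here.

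Another kind of shared sequence was a copy elsewhere in the genome. Gm10076 (ENSMUSG00000060143, chromosome 14, 105919259 to 105919665, plus strand) is 99.478% identical over 383 bases to Rpl41, a very small ribosomal protein whose gene lies on chromosome 10. Gm10076 had 53 and 16 counts in cKO replicates 1 and 2 and 37 and 39 counts in the controls, and Rpl41 had 760, 286, 491 and 714. The ratio of the lncRNA to Rpl41 was 0.0697, 0.0559, 0.0754 and 0.0546. The CPM of Gm10076 were 214 and 180 in cKO and 197 and 125 in control, with a log2 fold change of 0.32 and a standard error of 0.46. How reads that fit both places were counted is not given in the sources used here, so its level is uncertain. Of the 52, 34 had a GENCODE M21 transcript that could be searched, and 17 of these had another gene at 95% identity or more over at least 150 bases, counting genes at their own locus. In 7 of the 17 such a gene lay on another chromosome.

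On the opposite strand 11 members shared exon bases with coding genes. Gm57126 shared 279 bases with Cfap57 and had 22, 2, 7 and 29 counts beside 20, 0, 8 and 27. Gm16136 (ENSMUSG00000089804, chromosome 15, 37232035 to 37233600), which shares 259 bases with Grhl2, an epithelial transcription factor, had 97.04 and 67.4 CPM in cKO and 53.4 and 63.9 in control. The cKO values of Gm16136 lay above the control values, with a log2 fold change of 0.52 and a standard error of 0.62. Scaled by library totals alone, the groups of Gm16136 overlapped. Grhl2 had 7, 1, 4 and 12 counts. Since the use of strand in the counting is not given, reads in the shared bases of these pairs cannot be told apart.

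Several members start next to a coding gene that runs the other way. There were 10 with such a start within 1000 bases upstream. Gm20186 (chromosome 6, 18842933 to 18848532) starts 46 bases from Lsm8 and had 105 and 112 CPM in cKO and 144 and 95.8 in control. Its groups overlapped, and so did those of D17H6S56E-5, 570 bases from Vars, with 162 and 56.2 against 85.4 and 70.3.

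Of the 10 divergent members, 4 had both cKO values below both control values, which 19.6% of all tested genes also had. They were 9230114K14Rik, Gm56860, 4632427E13Rik and 2010004M13Rik, and none passed the test. All but 2010004M13Rik, which is not among the tested genes, reached the threshold on summed counts through the control libraries alone. Selection thus favoured this direction, and nothing is concluded from the comparison with all tested genes. 9230114K14Rik (ENSMUSG00000097145, chromosome 5, 52347997 to 52436376, plus strand), 141 bases from the RNA helicase gene Dhx15, had 56.6 and 11.2 CPM in cKO and 96.05 and 60.7 in control. Its log2 fold change was -0.95 with a standard error of 0.75, and that of Dhx15 was -0.45 with 0.44. Gm56860 (ENSMUSG00000121084) had 28.3 and 33.7 CPM in cKO and 48.03 and 83.03 in control. Its log2 fold change was -1.13 with a standard error of 0.77 (edgeR adjusted p 0.799).

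Of the remaining 2, 4632427E13Rik (chromosome 7, 92383374 to 92390718), 93 bases from Rab30, had 60.7 and 56.2 CPM in cKO and 74.7 and 63.9 in control, with a log2 fold change of -0.22. Rab30 had 0, 0, 0 and 1 counts. 2010004M13Rik (chromosome 7, 15782290 to 15783006), 444 bases from Bicra and under the filter, was at 8 and 0 counts in cKO and at 14 and 13 in control.

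The lncRNA with the lowest fitted fold change was Gm56936 (ENSMUSG00000120732, chromosome 6, 38664447 to 38666027, minus strand, 1 exon block). It had 4 and 1 counts in cKO replicates 1 and 2 and 10 and 26 counts in the controls, which are 16.2 and 11.2 CPM against 53.4 and 83.03. The mean was 13.7 ± 3.49 CPM (SD, n = 2) in cKO and 68.2 ± 20.98 (SD, n = 2) in control. The log2 fold change was -2.20 with a standard error of 0.89 (edgeR unadjusted p 0.0277, adjusted p 0.494). The row lies 5298 bases beyond the end of Hipk2, a nuclear kinase gene, on the same strand. Hipk2 had 16, 13, 17 and 32 counts and a fitted log2 change of 0.02 ± 0.60 (SE), so its groups did not show the difference seen in Gm56936.

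Another fitted value below -1 was that of 2610005L07Rik (ENSMUSG00000121345, chromosome 8, 20016466 to 20055498, plus strand), 1 of 5 members whose symbol stands on more than 1 row. It had 76.8 and 44.95 CPM in cKO and 155 and 121 in control, so that every cKO value was below every control value. The mean was 60.9 ± 22.5 (SD, n = 2) against 138 ± 23.6 (SD, n = 2), and the log2 fold change was -1.08 with a standard error of 0.56 (edgeR adjusted p 0.671). Nearby on the chromosome, 6820431F20Rik (chromosome 8, 20143722 to 20180155) had 190 and 146 CPM in cKO and 176 and 208 in control, with overlapping groups.

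On the higher side 9330162012Rik (ENSMUSG00000086448, chromosome 13, 25121384 to 25125400, plus strand) had the largest fitted value. It had 13 and 7 counts in cKO replicates 1 and 2 and 5 and 6 counts in the controls, which are 52.6 and 78.7 CPM against 26.7 and 19.2. The log2 fold change was 1.47 with a standard error of 0.86 (edgeR adjusted p 0.716). It shares 203 bases with Aldh5a1 on the opposite strand, which had 3, 0, 0 and 4 counts.

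There were 13 members within 10000 bases beyond the end of a coding gene on the same strand. Gm56517 (ENSMUSG00000120144, chromosome 12, 69421378 to 69422754, plus strand) begins 821 bases beyond Arf6, a small GTPase of the plasma membrane. It had 150 and 89.9 CPM in cKO and 139 and 275 in control, and its log2 fold change was -0.74 with a standard error of 0.51. Arf6 had 32, 7, 10 and 29 counts and a fitted log2 change of 0.53 ± 0.59. (SE) The ratio of Gm56517 to Arf6 was 1.156 and 1.143 in cKO and 2.6 and 2.97 in control, close within each group and higher in control, though the counts of cKO replicate 2 are only 8 and 7. This ratio was picked out after its values were seen and has no test.

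The other abundant members showed no separation. Gm15987 (chromosome 6, 128913346 to 128952034) had 113 and 112 CPM in cKO and 96.05 and 128 in control. Its fitted log2 change was 0.00. ENSMUSG00000121482, on the same chromosome, had 48.5 and 169 in cKO and 74.7 and 128 in control, with the replicates of each group further apart than the group means. Of the 52, 17 overlap no exon of any other gene. Of these, 12 were tested, and 9 had a fitted value below 0, where 49.6% of all tested genes did. Several of the 9, among them Gm56936, Gm56860 and 9230114K14Rik, reached the threshold on summed counts through the control libraries alone. The threshold thus bears on this direction count, and nothing is concluded from it.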

How the data were processed

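Total RNA of separated epidermis was measured in 4 libraries, 2 cKO and 2 control, made with a QIAseq UPX 3' kit and converted for MGI sequencing, per the labels' protocols. A single table of raw counts, with no normalisation, was deposited by the authors, with exon positions, strand, type and feature length (in bases, a value of another kind) per the file headers; 0 per-sample columns were left unused. The submitters' processing notes name Trim Galore 0.6.7, Trimmomatic 0.39, cutadapt 3.7, STAR 2.7.10a, featureCounts 2.0.1 and GRCm39. The settings for strand, molecular identifiers, overlapping genes and reads with several alignments are not given in the sources used here. Coordinates are those of the table; 2.03% of coding genes start within 100 bases of their GRCm38.p6 start. Sequences come from RefSeq and GENCODE M21 tables and were not combined with these coordinates.

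Genes were filtered with filterByExpr (minimum count 10, minimum total 15; 4243 kept), scaled with TMM and tested with edgeR 4.0.16 (R 4.3.3), genotype as the only term, Benjamini-Hochberg threshold 0.05, on all 4 libraries. The standard error is the absolute log2 fold change over the square root of F. The fit was tested on simulated data. Depth per library is given in the report. Copies were searched with blastn 2.17.0. The members, lists and alternatives were chosen with earlier results of these data known. Named members are the 15 highest by mean CPM, the 5 largest and 5 smallest fold changes among tested members whose groups do not overlap, list members, and coding neighbours; exon-sharing pairs, Lncppara, Gm57126 and other members were named after their values were seen. Alternatives were other scalings and filters, DESeq2 1.42.0, limma-voom (limma 3.58.1), the replicate number as a block, each library left out, and other member sets. The coding neighbour of 1 named member is not reported here.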

Additional observations from a re-analysis of the deposited data

How the results depend on the processing

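No alternative called an lncRNA. The lowest adjusted p among them ran from 0.330 (library totals) to 0.9997 (DESeq2). Over all genes, the 36 calls became 75 without a count filter, 55 with a mean of at least 10 CPM, 15 with limma-voom, and 52 to 86 with 1 library left out (82 without cKO replicate 1, 86 without cKO replicate 2). With library totals 26 of 41 calls were higher, against 28 of 36, and the median log2 fold change of all genes moved from 0.007 to -0.238; that of the tested lncRNAs was then -0.33, and it reached 0.01 with limma-voom. It was -0.32 in the 12 members with no exon overlap, on whose direction the threshold on summed counts also bears. The cKO share of counts as a percent of control ran from 67.86 to 85.8 over its alternatives, the last with TMM-scaled CPM in place of library totals, chosen after seeing the data. In cKO replicate 2, 14 of the 52 members had 3 or fewer counts, which limits their fold changes. Ranked per kb, 7 of the 15 most abundant members remained.

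Same-numbered libraries had a correlation of deviations of -0.1995 over 4243 genes. With 2 libraries per group this value cannot show whether same-numbered libraries share a batch or a pairing. With the replicate block 17 genes were called and 0 lncRNAs (lowest adjusted p 0.908); with crossed numbers, chosen after seeing the data, 147 genes and 0 lncRNAs. Of 463 values of 29 named members under alternatives, 38 had the other sign, in 15 members whose reported values were 0.60 or smaller in size. With the block these were Tmem147os (0.0015) and Mir99ahg (-0.16). With library totals they were Neat1 (-0.0513), Gas5 (-0.15), Mir205hg (-0.11) and Gm15987 (-0.25). Gm15987 was also at -0.0191 with upper quartile scaling, -0.0783 without a filter, -0.0445 at 10 CPM, -0.0109 with all members added, and -0.00898 with crossed numbers and -0.0092 without abundant pseudogenes in the library sizes. Limma-voom gave 0.0348 for Kcnq1ot1 and 0.0824 for Norad, and DESeq2 gave 0.0203 for ENSMUSG00000121482. With 1 library left out, the lowest and highest values lay on either side of 0 for Tmem147os (-0.47 to 0.49), Gas5 (-0.16 to 0.40), Gm20186 (-0.40 to 0.18), Gm15987 (-0.18 to 0.25), Gm20427 (-0.24 to 0.9998), ENSMUSG00000121482 (-1.07 to 0.66), D17H6S56E-5 (-0.50 to 1.07), Kcnq1ot1 (-0.43 to 0.14), Norad (-0.40 to 0.17), Mir205hg (-0.49 to 0.40), Snhg20 (-0.85 to 0.55), Snhg8 (-0.46 to 0.37), Mir99ahg (-1.85 to 0.88) and Chaserr (-0.67 to 1.12). A fit with a lone library in a group assumes that it varies like the other group. The cause of these moves was not tested.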
